A study of Sus scrofa with 6 samples.

Results

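Proximal tubule cells take filtered protein and peptides back from the urine and break down many amino acids. The transcripts followed here are 58 genes of that work: receptors and peptidases of the brush border, and enzymes of amino acid catabolism, with no transporters. A member was any probe set to which the array annotation gives a single gene symbol equal to one of the 58. This found 64 probe sets of 43 genes, of 6765 genes with a single annotation among the 23999 probe sets that are not controls. The other 15 genes (CUBN, MEP1A, MME, GLYAT, AGXT, HGD, PRODH2, GLDC, MCCC1, HIBADH, ALDH6A1, PCCB, PRODH, GLUD1 and AASS) have no probe set named here and were not analysed. Each gene is described by its brightest probe set, the one with the highest mean over the arrays, unless another is named.

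The tissue was renal medulla of adult female Large White-Landrace crossbred pigs, taken 24 hours after the intervention. The 3 CPB pigs had 2.5 hours of cardiopulmonary bypass through a neck dissection under general anaesthesia, and the 3 Sham pigs had 2.5 hours of anaesthesia with the same dissection and the same heparin treatment. RNA of each animal went to its own Affymetrix porcine array, and the values are intensities normalised by the RMA algorithm, with an array median between 94.62 and 96.93. Blocks of outer medulla were cut from fresh kidney, and a block can hold several segments of the nephron in unknown shares.

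Along the proximal tubule, the receptor megalin and its partner cubilin, which amnionless holds at the membrane, capture filtered proteins, and peptidases anchored in the same brush border cut peptides into amino acids. Inside the cell, mitochondrial, cytosolic and peroxisomal enzymes oxidise the carbon skeletons and hand on the nitrogen. Most of this tubule lies in the cortex, and its straight end reaches into the outer medulla. In the kidney the receptors, the peptidases and enzymes such as MIOX are known chiefly from this segment, whereas branched-chain oxidation and the aldehyde dehydrogenases run in most tissues. The 43 genes were therefore split by known tissue range into 22 tubule-restricted members and 21 ubiquitous members.

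The 22 tubule-restricted members separated single animals far more than they separated CPB from Sham. Their level, the mean of their log2 intensities after subtracting each gene's average of the 6 arrays, was 1.34 in CPB 1, -1.55 in CPB 2 and 1.64 in CPB 3, against -2.15 in Sham 1, 1.11 in Sham 2 and -0.40 in Sham 3. CPB 2 thus lay with Sham 1 at the low end, and Sham 2 lay near CPB 1 and CPB 3. The ubiquitous members ran the same way over a narrower range, at 0.33, -0.47 and 0.70 in CPB 1, 2 and 3 and at -0.47, 0.20 and -0.28 in Sham 1, 2 and 3. The group mean of the restricted level was 0.48 ± 1.76 in CPB and -0.48 ± 1.64 in Sham (SD, n = 3 animals each), and that of the ubiquitous level 0.19 ± 0.60 in CPB and -0.19 ± 0.35 in Sham. For both classes the difference between the groups was smaller than the SD within CPB. It was also smaller than the SD within Sham for the restricted class, but not for the ubiquitous class (0.37 against 0.35). Fewer proximal tubule cells in a block and less of these RNAs per cell cannot be told apart in bulk tissue.

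**Figure D1:**
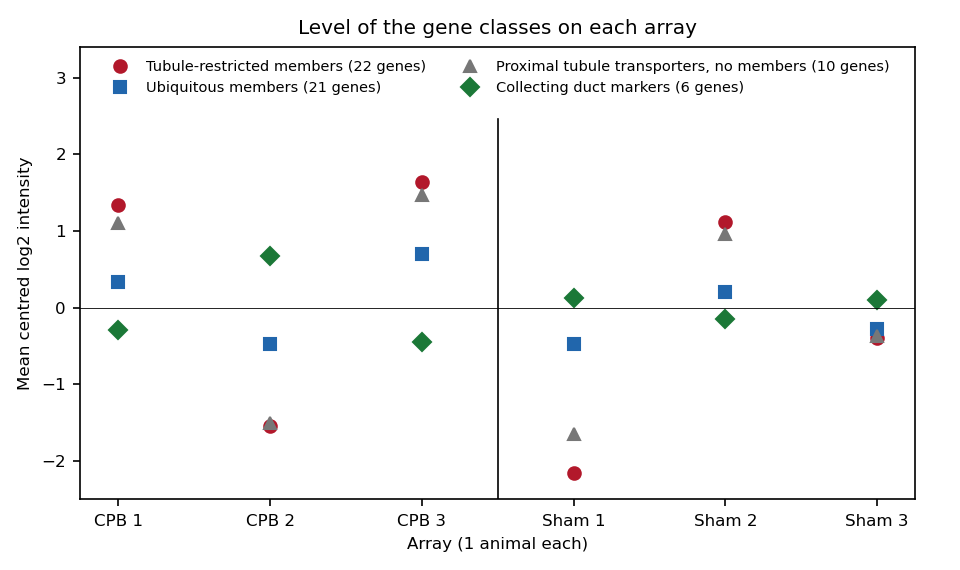
Level of each gene class on each array, as mean log2 intensity after subtracting each gene's average of the 6 arrays. A point is 1 class in 1 animal, and the vertical line parts the CPB from the Sham arrays. Tubule-restricted members lie at -1.55 in CPB 2 and -2.15 in Sham 1, next to the transporters, and collecting duct markers lie at 0.68 in CPB 2.

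Proximal tubule transporters moved with this pattern on the same arrays, and the thick limb level did not. The collecting duct, endothelial, leukocyte, urothelium and fibroblast and muscle levels ran the other way. They were lower in CPB 1, CPB 3 and Sham 2 than in the other animals. The 10 measured of 24 proximal tubule transporters, none of them a member, had levels of 1.10, -1.50 and 1.47 in CPB 1, 2 and 3 and of -1.65, 0.96 and -0.37 in Sham 1, 2 and 3, with summed intensities from 774 to 7471 in CPB and from 698 to 5618 in Sham. The 6 measured of 14 collecting duct markers stood at -0.29, 0.68 and -0.46 in the CPB and 0.12, -0.15 and 0.10 in the Sham animals in the same order, with sums from 2676 to 9548 in CPB and from 3562 to 6711 in Sham. EGF and KCNJ1, the measured genes of 9 thick limb and distal tubule markers, summed to between 2574 and 3177 in CPB and between 1542 and 3798 in Sham. Their levels were 0.23, -0.12 and -0.14 in the CPB and 0.50, 0.32 and -0.80 in the Sham animals. These levels average genes that ran opposite ways within CPB. KCNJ1 had 1249, 2127 and 835 in the CPB and 2219, 1250.5 and 881 in the Sham animals. EGF had 1928, 701 and 1739 in the CPB and 1579, 2179 and 660 in the Sham animals. The 10 endothelial markers lay at -0.30, 0.38 and -0.50 in the CPB and 0.50, -0.23 and 0.15 in the Sham animals, and 5 urothelium markers at -0.82, 0.67 and -0.88 in the CPB and 0.46, -0.95 and 1.53 in the Sham animals. The 9 fibroblast and muscle markers lay at -0.26, 0.23 and -0.61 in the CPB and 0.53, -0.47 and 0.58 in the Sham animals. Leukocyte markers, 12 measured of 17, had a narrower range. They lay at -0.09, 0.10 and -0.10 in the CPB and 0.15, -0.06 and 0.01 in the Sham animals. The 1 measured of 7 podocyte markers, on a dim probe set, had the signs of the restricted members over a narrower range. It lay at 0.30, -0.17 and 0.24 in the CPB and -0.43, 0.24 and -0.18 in the Sham animals. Single genes could differ from their list, and 1 of the 6 collecting duct markers had Sham 1 and CPB 2 as its lowest pair. PECAM1, an endothelial adhesion molecule, had 533, 752 and 427 in the CPB and 1232, 708 and 927 in the Sham animals, a log2 difference of -0.75 (standard error 0.29, limma unadjusted p = 0.0399, adjusted p = 0.995). It was named because it passed the cutoffs, and of the 10 endothelial markers 5 had a higher and 5 a lower mean in CPB. The part of tissue composition in the differences between the groups was not tested by these values.

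The order within each group was largely shared by the tubule-restricted members measured. In 22 of 22 Sham 1 was below Sham 3 and Sham 3 below Sham 2, with CPB 2 the lowest CPB animal. The same holds for 12 of 21 ubiquitous members and 15.5% of all probe sets. Across the groups the order varied, since Sham 1 was lowest for 17 and CPB 2 for 5 of the 22, and CPB 3 was highest for 17, Sham 2 for 3 and CPB 1 for 2. Sham 1 and CPB 2 were the lowest pair of arrays for 20 of the restricted and 9 of the ubiquitous members, against 14.3% of all probe sets. The highest array lay above the lowest by more than 4-fold for 20 of 22 restricted and 4 of 21 ubiquitous members, against 5.60% of all probe sets, with medians of 15.6-fold, 2.74-fold and 1.48-fold. These genes share tissue blocks and arrays, so they are not independent readings, and the difference between the classes was not tested.

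**Figure D2:**
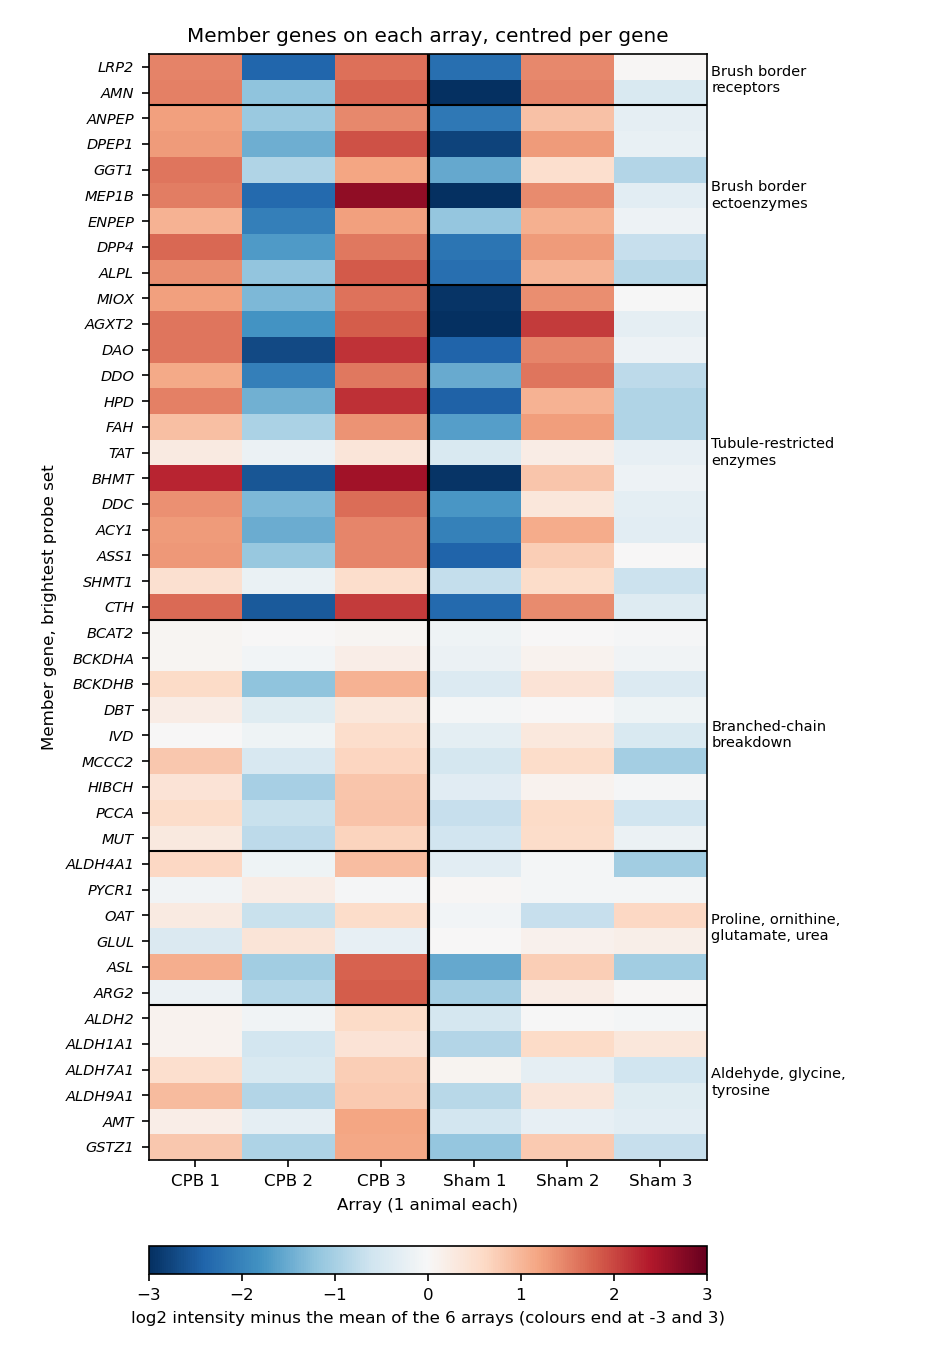
Log2 intensity of the 43 member genes on each array (columns, CPB left of the line and Sham right), centred per gene, with genes in rows by role and colours ending at -3 and 3. The upper 3 blocks, the 22 tubule-restricted genes, are low in CPB 2 and Sham 1 and high in CPB 1, CPB 3 and Sham 2. The lower 3 blocks are paler, except ASL, BCKDHB, ARG2 and GSTZ1.

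Set against each other, CPB medulla had the higher mean for 41 of 43 members, 22 of 22 restricted and 19 of 21 ubiquitous, where 55.9% of all probe sets were higher and 44.1% lower. The median log2 difference, CPB minus Sham, was 1.04 for the restricted and 0.28 for the ubiquitous members, against 0.03 over all probe sets. With limma's moderated test, adjusted over all probe sets, no member had an adjusted p under 0.05 (0 of 64), and the smallest adjusted p was 0.995, with 0% called in the whole table. An unadjusted p under 0.05 was reached by 1 of 64 member probe sets, where 1.40% of all probe sets reach it. With the methods' t-test rerun here 0 did. With the study's cutoffs applied to limma's p, that is an unadjusted p under 0.05 and at least a 1.6-fold difference, 1 member probe set passed in the higher direction (0.0875% of all) and 0 in the lower (0.217% of all). With the methods' t-test rerun here 0 members passed the same cutoffs, although the study's published list holds ALDH4A1. For 0 of 64 did every CPB array lie above every Sham array, against 3.38% of all probe sets, and for 0 did every one lie below, against 1.89%. The median standard error of the log2 difference was 1.21 for the restricted and 0.44 for the ubiquitous members, against 0.17 over all probe sets, so the larger differences came with the wider errors.

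These medians varied with single animals. Without Sham 1 the median of the restricted members was 0.16, without CPB 3 it was 0.46, without CPB 1 0.65, without Sham 2 1.76 and without CPB 2 2.06. That of the ubiquitous members was 0.14 without Sham 1, 0.08 without CPB 3, 0.51 without Sham 2 and 0.70 without CPB 2. Without Sham 1 or CPB 3, 33 and 31 of 43 members had the higher mean in CPB. Leaving out both Sham 1 and CPB 2, an alternative chosen after the data were seen, gave medians of 1.05 and 0.58, with 41 of 43 higher. With the mean level of the 10 transporters as a covariate the medians were 0.21 and 0.11 and 31 of 43 had a positive coefficient.

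**Figure D3:**
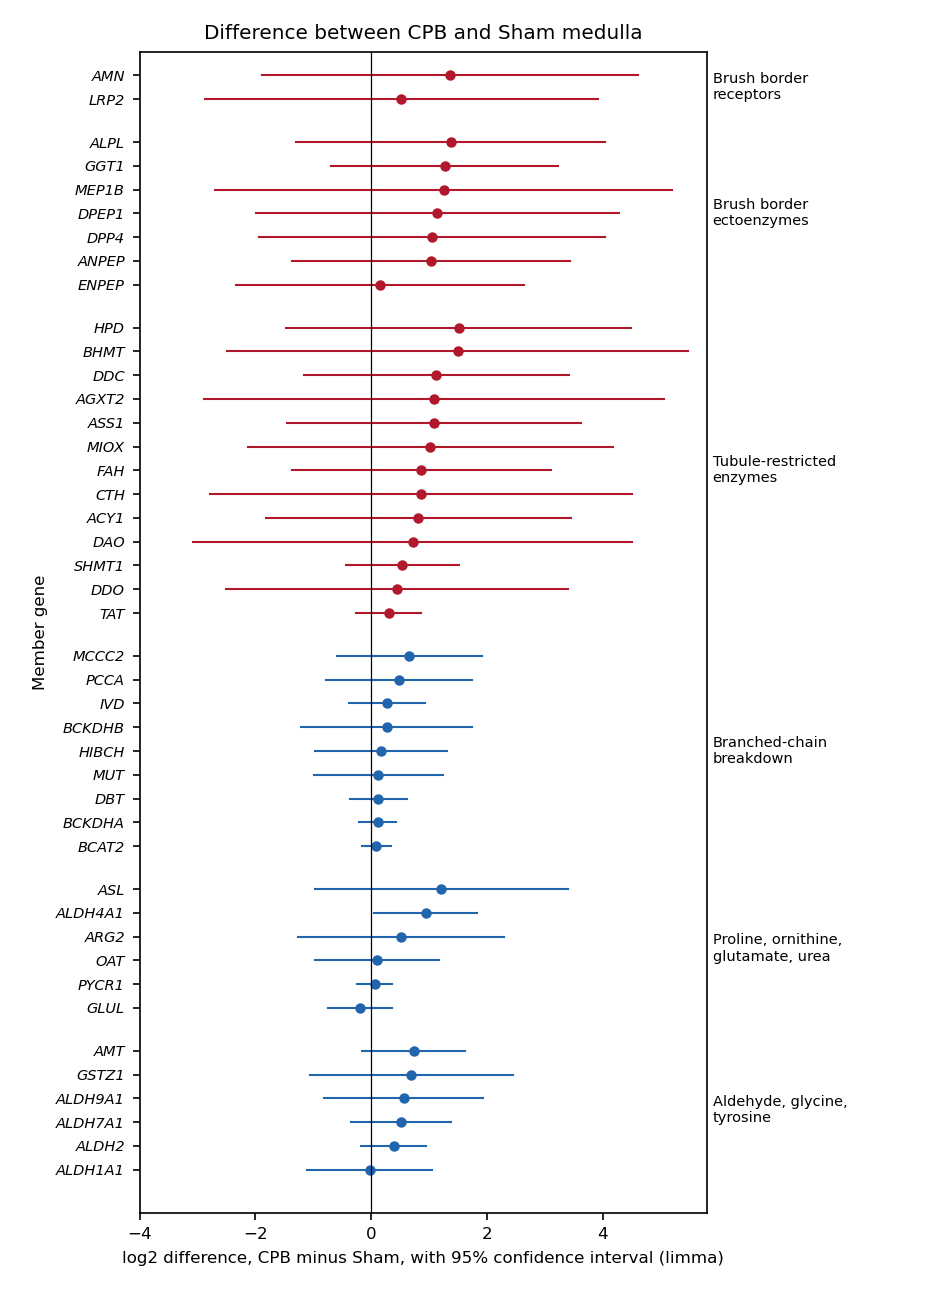
Log2 difference, CPB minus Sham, of the 43 member genes with its 95% confidence interval from limma, grouped by role and sorted within each group (red, tubule-restricted; blue, ubiquitous). The interval includes 0 for every gene except ALDH4A1, where it runs from 0.05 to 1.83.

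Both measured receptor genes were spread over more than a 16-fold range. LRP2, which encodes megalin, had intensities of 2469, 169 and 2740.2 in CPB 1, 2 and 3, against 181, 2390 and 899 in Sham 1, 2 and 3. CPB 2 stood below all Sham animals, and Sham 2 stood close to CPB 1. LRP2 differed by 0.52 (standard error 1.39) on the log2 scale, and a second probe set of it gave 0.85 (standard error 1.48). AMN, which encodes amnionless, had 1612, 246 and 1931 in the CPB animals, against 66.9, 1601 and 417 in the Sham animals. Sham 2 stood beside CPB 1, and the log2 difference between the groups was 1.37 (standard error 1.33).

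Of the 7 measured ectoenzymes of the brush border, all had a higher mean in CPB, with log2 differences between 0.16 and 1.38. ALPL, the tissue-nonspecific alkaline phosphatase, had 485, 80.5 and 659 in the CPB animals, against 38.4, 369.7 and 104 in the Sham animals, a difference of 1.38 (standard error 1.09). GGT1, which starts the breakdown of glutathione at the membrane, had 799, 140.5 and 596 in CPB and 90.7, 370.1 and 141 in Sham, a difference of 1.27 (standard error 0.80). CPB 1 and CPB 3 lay above every Sham animal for both genes and CPB 2 lay within the Sham range. The other 3 GGT1 probe sets, all dimmer, had differences of 0.13 to 0.39. MEP1B, the beta subunit of the metalloprotease meprin, had the widest range of all members, 50.8-fold: 389, 26.7 and 852 in the CPB and 16.8, 357 and 108 in the Sham animals. Its difference was 1.26 (standard error 1.62). Dimmer MEP1B probe sets spanned 17.1-fold and 1.38-fold, with differences of 1.01 and 0.16. ENPEP, the aminopeptidase that turns angiotensin II into angiotensin III, stood lowest in difference. It had 4200, 490.4 and 4785 in CPB, against 906, 4262 and 1838 in Sham, a difference of 0.16 (95% confidence interval -2.33 to 2.64). ANPEP, DPEP1 and DPP4, peptidases of the same membrane, had differences of 1.03, 1.15 and 1.06 with ranges of 12.1-fold, 25.6-fold and 14.9-fold across animals.

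The 13 measured tubule-restricted enzymes all had a higher mean in CPB, from 0.31 to 1.51. HPD, the dioxygenase of tyrosine breakdown, had the largest difference of all members at 1.51 (standard error 1.22). Its intensities were 225, 29 and 356 in CPB, against 14.7, 162 and 41.9 in Sham. Its mean log2 intensity lay below the median of all probe sets, and Sham 1 and CPB 2 were its dimmest arrays. BHMT, which remethylates homocysteine with betaine, had 2655, 92.3 and 3125 in CPB and 71.4, 967 and 493 in Sham, a difference of 1.5 (standard error 1.63). Of all members BHMT set CPB 1 and CPB 3 furthest above the highest Sham animal while CPB 2 stayed near Sham 1. DDC, the decarboxylase that makes dopamine from DOPA in this tubule, had 4789, 729 and 5972 in CPB, against 551, 2366 and 1532 in Sham, a difference of 1.13 (standard error 0.94). TAT, the transaminase that opens tyrosine breakdown and is best known from liver, was dim and varied least on its brightest probe set. It had 55.5, 40.8 and 58.9 in CPB and 33.7, 53.8 and 38.8 in Sham, a difference of 0.31 (standard error 0.23). A still dimmer TAT probe set spanned 4.09-fold, with a difference of 0.74.

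Among the remaining enzymes of this class, AGXT2, a mitochondrial transaminase that degrades dimethylarginines, spanned 47.2-fold, from 69.2 in Sham 1 to 3268 in Sham 2, so its full range lay within the Sham group. MIOX, the oxygenase that starts inositol breakdown, had 3764, 631 and 4979 in CPB, against 209.5, 4218 and 1587 in Sham, a difference of 1.03 (standard error 1.29). The oxidases of D-amino acids, DAO and DDO, had differences of 0.72 and 0.45, and for DAO CPB 2 at 58.5 was below Sham 1 at 71.8. ASS1, which joins citrulline and aspartate on the way to arginine, had 7243, 1326 and 8020.4 in CPB and 552, 4908 and 2960.2 in Sham, a difference of 1.09 (standard error 1.04). FAH, ACY1 and CTH, enzymes of tyrosine, acetylated amino acid and cystathionine breakdown, had 0.87, 0.82 and 0.87. SHMT1, which exchanges carbon units between serine and glycine, varied by 2.42-fold on its brightest probe set and 6.70-fold on a dimmer one, with differences of 0.54 and 0.94. CPB 1 and CPB 3 were both above every Sham animal for 16 of the 22 restricted and 12 of the 21 ubiquitous members, against 13.0% of all probe sets.

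**Figure D4:**
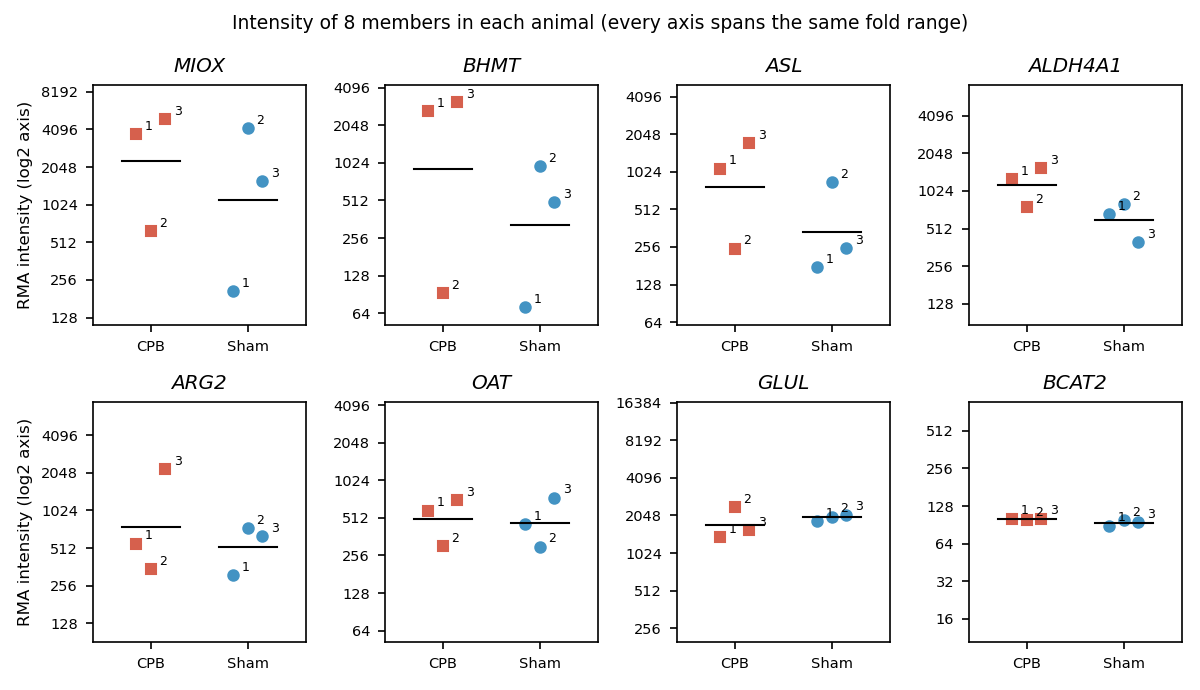
RMA intensity of 8 members in each animal on log2 axes that span the same fold range (squares, CPB; circles, Sham; digits, animal number; lines, means of log2 values). CPB 2 lies among the Sham animals for MIOX, BHMT and ASL, while ALDH4A1 is spread over 3.89-fold and BCAT2 over 1.14-fold.

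Branched-chain amino acids are oxidised in mitochondria of most tissues, and their 9 measured enzymes had small differences between 0.09 and 0.66, all higher in CPB. BCAT2, the transaminase of the first step, had 101, 98.2 and 101 in CPB, against 89.3, 98.4 and 95.5 in Sham, a difference of 0.09 (95% confidence interval -0.16 to 0.34). BCKDHA and DBT, subunits of the dehydrogenase of the next step, had 0.11 and 0.12, and BCKDHB, another subunit of it, spanned 4.71-fold with a difference of 0.27. MCCC2, a subunit of the carboxylase of leucine breakdown, had 1564, 636 and 1390.3 in CPB and 615, 1297 and 438 in Sham, a difference of 0.66 (standard error 0.51). PCCA, a subunit of propionyl-CoA carboxylase, had 870.4, 374 and 1080.4 in CPB, against 368, 893 and 395 in Sham, a difference of 0.48 (standard error 0.51). For both, CPB 2 stood with Sham 1 and Sham 3, and Sham 2 stood with the other CPB animals. IVD, the dehydrogenase of isovaleryl-CoA, had 336, 303 and 480.5 in CPB and 273, 416 and 242 in Sham, a difference of 0.28 (standard error 0.27). HIBCH and MUT, enzymes of valine and propionate breakdown, had 0.17 and 0.13.

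In the breakdown of proline, ornithine and glutamate, ALDH4A1 was the member that passed the cutoffs with limma's p, and it did not pass them with the methods' t-test. The study also singled it out on these arrays, so its call is not independent evidence. The enzyme oxidises the semialdehyde that proline and ornithine share to glutamate. Its intensities were 1281, 756 and 1562 in CPB 1, 2 and 3, against 663, 801 and 402 in Sham 1, 2 and 3. CPB 1 and CPB 3 exceeded every Sham animal and CPB 2 stood between Sham 1 and Sham 2. The log2 difference was 0.94 (standard error 0.36, limma unadjusted p = 0.0409, adjusted p = 0.995). The group accounted for 54.4% of its variance over the 6 arrays, a share that rests on the same values as the p that selected it. The median was 12.0% for the restricted and 13.8% for the ubiquitous members. BCAT2, with a difference of only 0.09, had 50.3%. A dimmer ALDH4A1 probe set differed by 0.69 (standard error 0.46). The cutoffs were missed in limma without CPB 1, CPB 3, Sham 1 or Sham 3, at differences down to 0.66. With the transporter covariate the ALDH4A1 coefficient was 0.77 (standard error 0.29, unadjusted p = 0.0374), and with Sham 1 and CPB 2 left out it was 1.32 (standard error 0.37).

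The urea cycle lyase ASL, listed among the ubiquitous members, had the animal order of the restricted ones. Its intensities were 1087, 248 and 1747 in CPB, against 177, 850.5 and 249.8 in Sham, a range of 9.85-fold and a difference of 1.22 (standard error 0.89). ARG2, the mitochondrial arginase, had 555, 349.9 and 2209 in CPB and 309, 735 and 641 in Sham. Here CPB 3 stood alone at the top, the difference was 0.52 (standard error 0.73), and without CPB 3 it was -0.25. A second ARG2 probe set also had its highest value in CPB 3, 1218, with a difference of 0.24. OAT, the transaminase of ornithine, broke the order of the animals, with 586, 304 and 714 in CPB and 459.6, 301.5 and 744 in Sham, a difference of 0.10 (95% confidence interval -0.98 to 1.18). GLUL, glutamine synthetase, had the lowest difference of all brightest probe sets. It had 1365, 2402 and 1570.1 in CPB, against 1853, 2007 and 2078 in Sham, a difference of -0.20 (standard error 0.22), with CPB 2 above and the other CPB animals below the Sham range. Its other probe sets gave -0.44 and 0.09, and it was the 1 gene of 13 with several probe sets whose differences had mixed signs. PYCR1, which makes proline, differed by 0.06 between the groups at low intensity.

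Of the 4 measured aldehyde dehydrogenases, ALDH4A1 apart, ALDH7A1 of lysine breakdown, ALDH9A1 of carnitine synthesis and ALDH2, the mitochondrial enzyme that oxidises acetaldehyde, had differences of 0.52, 0.56 and 0.39. ALDH9A1 had 3684, 1042 and 3297 in CPB, against 1077, 2463 and 1481 in Sham (standard error 0.56), with CPB 2 lowest of all animals. ALDH1A1, a cytosolic retinal dehydrogenase, had 4239, 2691 and 5166 in CPB, against 2124, 5813 and 4978 in Sham, a difference of -0.02 (95% confidence interval -1.10 to 1.06) that became 0.026 after a second quantile normalization. Sham 3 ranked with the high animals for this gene, unlike for the restricted members. AMT, the aminomethyltransferase of glycine cleavage, had 127, 93.1 and 251 in CPB, against 75.9, 94 and 89.7 in Sham, a difference of 0.74 (standard error 0.36), and its dimmer probe sets gave 0.38 and 0.01. GSTZ1, the isomerase next to last in tyrosine breakdown, had 755, 225 and 958 in CPB and 193, 740.1 and 267 in Sham, a difference of 0.70 (standard error 0.72). Its animals lay in the order of most restricted members, with CPB 2 between Sham 1 and Sham 3.

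**Figure D5:**
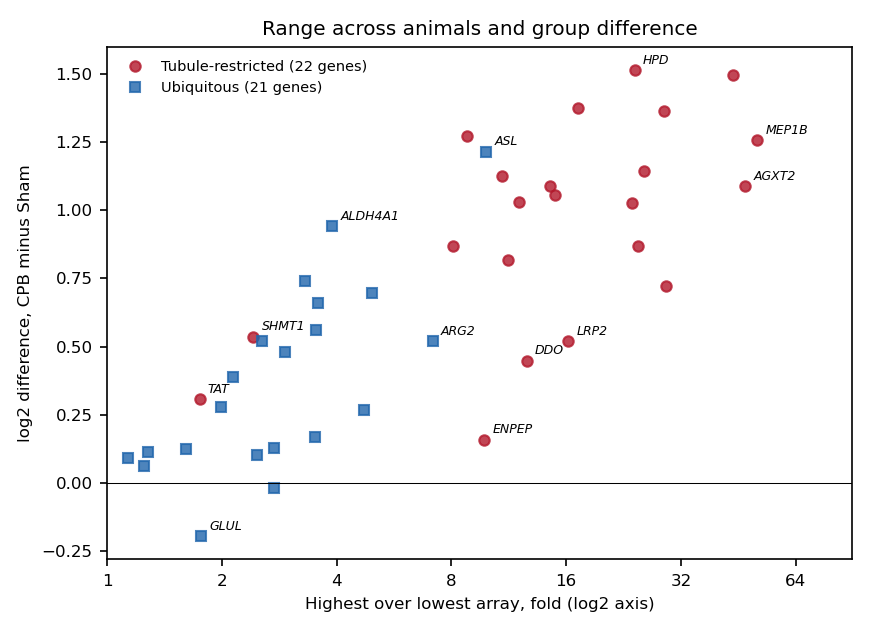
Log2 difference, CPB minus Sham, of each member (vertical axis) against the fold between its highest and lowest array (horizontal log2 axis), 22 tubule-restricted genes as circles and 21 ubiquitous genes as squares. Restricted genes except TAT and SHMT1 lie right of 8-fold, with differences from 0.16 (ENPEP) to 1.51 (HPD), and ALDH4A1 reaches 0.94 at 3.89-fold.

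Other genes of the same pathways were not split by tissue range and were not tested against the members. Of 67 other genes of amino acid breakdown 39 were measured, 34 of them with a higher mean in CPB (median 0.29), 10 with more than a 4-fold range, and 0 past the cutoffs with limma's p. Over all probe sets these shares were 55.9%, 5.60% and, for the cutoffs, 0.0875% in the higher and 0.217% in the lower direction. CNDP1, a carnosine dipeptidase, had the largest difference, with 904, 116 and 1296 in CPB and 61.9, 706 and 183 in Sham, 1.36 (standard error 1.21). GOT2, the mitochondrial aspartate transaminase, differed by 0.43 (standard error 0.25). ALDH3A2, a fatty aldehyde dehydrogenase, was 0.27 higher in CPB (standard error 0.16), and the creatine-forming GAMT 0.52 higher (standard error 0.35). Of 22 other brush border and endocytosis genes 9 were measured, 8 higher in CPB (median 0.66), 7 with more than a 4-fold range and 0 past the cutoffs. XPNPEP2, a membrane aminopeptidase, had a difference of 1.01 (standard error 0.93), and SLC9A3R1, the scaffold protein NHERF1, one of 0.96 (standard error 0.56). ACE, the angiotensin-converting enzyme, had 0.37 (standard error 0.24). None of these genes had an adjusted p under 0.05 in limma.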

How the data were processed

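Renal medulla of 3 CPB and 3 Sham pigs was hybridised to Affymetrix porcine arrays, 1 per animal. The authors used the GCOS software for the scans and ArrayStar for RMA normalisation, which corrects background, equalises array distributions by quantiles and summarises probes, and the submitters' processing notes name RMA. The deposited values are RMA intensity values on the linear scale, read as such from their range, for 24123 probe sets. A genome build is not given in the sources used here, and the values hold no background per probe. The 124 control probe sets were left out and log2 was taken.

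CPB and Sham were compared with limma 3.58.1 in R 4.3.3 across 23999 probe sets with Benjamini-Hochberg adjustment over all genes. The fit was tested on simulated data. Confidence intervals are 95%. The array annotation names 10297 probe sets, 10099 with 1 symbol. With 3 animals per group, a two-sided exact permutation test cannot go below 0.1.

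The members, classes, lists and named genes were chosen with earlier results of these data known. Per-animal values are given for members past the study's cutoffs with limma's p, for the 3 largest and the smallest difference in each role group, and for ALDH4A1. AGXT2, DAO, MIOX, ASS1, OAT and the members of which only differences are given fall outside that rule and were chosen with their values known. From the 2 lists of other pathway genes, up to 3 with the smallest p and the 1 with the largest difference are named. Of the marker lists only PECAM1, past the cutoffs, is named, beside the thick limb genes. Alternatives were the methods' t-test, other normalizations, priors, filters, probe set choices, class limits and fold minimums, a covariate, a replicate block and each array left out. No sequences are shown.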

Additional observations from a re-analysis of the deposited data

How the results depend on the processing

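The count of member probe sets past the study's cutoffs, 1 higher and 0 lower in CPB with limma's p, depended on the fit. It was 0 with the methods' t-test rerun on log2 or linear values, 0 at a fold minimum of 2, 25 with array weights, and 11 with Sham 1 and CPB 2 both left out. Over all 23999 probe sets the higher calls also shifted. They were 21 in the main fit, 10 with either t-test, 749 with array weights and 212 with both arrays left out. With the transporter covariate the member count was 2 higher and 1 lower (ALDH4A1 and GGT1, and a dimmer ALDH1A1 probe set), against 47 and 63 over all probe sets. Leaving out 1 array gave member counts between 0 and 17, with 17 without CPB replicate 2, 3 without Sham replicate 2 and 0 without any of the others. The higher calls over all probe sets were then 375 without CPB replicate 2, 175 without Sham replicate 2 and 14 to 28 without the others. The cause of these shifts was not tested. Under no alternative did a member pass the adjusted p. With the replicate block the count was 0, at unchanged medians of 1.04 and 0.28. The numbers do not pair the animals, as the deviations of same-numbered animals correlated at -0.39, -0.68 and -0.02, and no animal of the CPB group correlated best with its own number.

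Of 22 named genes, 4 changed the sign of their log2 difference when 1 array was left out. The ranges were -0.49 to 1.83 for LRP2, -0.42 to 1.22 for ENPEP, -0.25 to 1.08 for ARG2 and -0.47 to 0.26 for ALDH1A1. LRP2 was at -0.48 and ENPEP at -0.57 with the transporter covariate, and ALDH1A1 at 0.28 with array weights and 0.026 after a second quantile normalization. Using the mean of a gene's probe sets gave class medians of 0.95 and 0.27, and moving FAH, ACY1, ASS1, SHMT1 and CTH to the ubiquitous class gave 1.09 and 0.50. The covariate is measured on the same blocks as the members, and with 6 arrays it leaves 3 residual degrees of freedom.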
